A study of Arabidopsis thaliana with 8 samples.

Results

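Zone 2 of the Arabidopsis thaliana root was set against the other 3 longitudinal zones. It was represented by 2 of the 8 expression arrays, those labelled longitudinal zone 2. The comparison took the mean log2 signal of these 2 arrays minus the average of the zone means of zones 1, 3 and 4, which hold 2 arrays each and 6 in all. All 4 groups were root tissue of ecotype Columbia seedlings grown for 5 days on 1X MS medium and then moved to sulfur-deficient medium for 3 hours before dissection. Because every group had this treatment, the comparison concerns position along the root under low sulfur, and the effect of low sulfur itself was not analysed here. The labels number the zones and call them developmental stages, without giving distances from the tip or anatomical names. Whether both samples of a zone are independent biological material is unstated, and the p-values measure only how far those samples spread, which may be technical.

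A root grows from its tip. Cells divide in the meristem, then elongate as their walls are loosened and rebuilt, and then differentiate, when epidermal cells form root hairs and the endodermis forms the Casparian strip, a barrier to free diffusion. Cells leaving the meristem often go on copying their DNA without dividing, a cycle in which inhibitors of cyclin-dependent kinases take part.

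Each value is a MAS5 signal, a linear measure of the brightness of the set of probes that represents a transcript, and signals of different probe sets are not compared with each other. The medians of the 8 arrays were 57.8 to 79.6, and precision is limited by the small number of arrays. The 2 zone 2 arrays had 3'/5' signal ratios of the GAPDH control, a measure of RNA integrity, of 18.5 and 32.2, within the range of 13.2 to 64.3 over all arrays. They correlated with each other at r = 0.924 across the 13647 probe sets tested, and 13.1% of these probe sets were more than 2-fold apart between them. With the arrays of zone 1, replicate 1 of zone 2 had r = 0.848 and 0.85, and replicate 2 had r = 0.754 with each. Replicate 2 of zone 2 correlated at 0.916 with replicate 2 of zone 3. Probe sets are not independent points, and no test is attached to these correlations. The counts below are also given without replicate 1 of zone 2 and replicate 2 of zone 3. SPCH and FMA, of the guard cell and shoot epidermis list, had signals of at most 8.34 and 38.1 on any array and were too dim to be tested. In bulk samples, fewer cells of a type and less RNA per cell cannot be told apart.

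No gene of zone 2 differed from the average of the other 3 zones at the threshold used, an adjusted p under 0.05 and a difference of at least 2-fold. With limma and Benjamini-Hochberg adjustment over 13647 probe sets, 0 were higher and 0 were lower in zone 2 (0%), and the smallest adjusted p was 0.444. At an unadjusted p under 0.05 there were 1086 probe sets (7.96%), where 682 would be found by chance if none differed. The log2 differences had a median of 0.03 and an SD of 0.57 over all probe sets. By size alone, 291 probe sets were at least 2-fold higher in zone 2 and 581 at least 2-fold lower. A single probe set would have needed an unadjusted p of 3.66e-06 to pass, which at the median SE of 0.34 is a log2 difference of 2.97. Probe sets with a smaller SE would have needed less. Without replicate 1 of zone 2 there was 1 call, hemb2, and without both that array and replicate 2 of zone 3 there were 0.

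Zone 2 lay between other zones for most of the transcriptome. Its mean was the highest of the 4 zone means in 1989 probe sets (14.6%), second in 4480 (32.8%), the third highest in 5464 (40%) and lowest in 1714 (12.6%). Zone 1, by comparison, had the highest mean in 5163 probe sets and the lowest in 5116. Both zone 2 arrays lay above all 6 other arrays in 328 probe sets (2.4%) and below all 6 in 292 (2.14%). In zone 1 the same counts were 2800 and 2683, in zone 3 they were 1255 and 2263, and in zone 4 they were 570 and 435. Arrays in random order would also place some probe sets outside the range, and that share was not estimated. Of the 328 probe sets above the range, 196 had 1 gene in the annotation, 125 had none named here and 7 had several. Of the 292 below it, 140 had 1 gene, 148 had none named here and 4 had several. Centring each array on its median, which moved the median difference of all probe sets from 0.03 to 0.10, changed these counts to 397 above and 234 below.

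**Figure D1:**
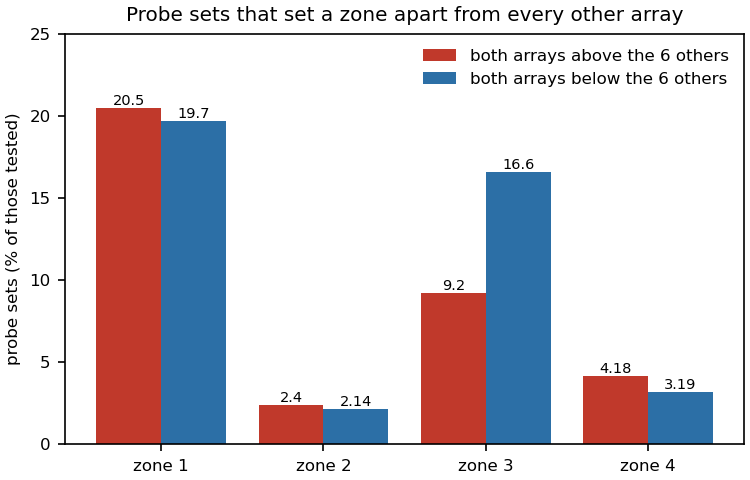
Percent of the 13647 probe sets tested (vertical axis) in which both arrays of a zone lay above (red bars) or below (blue bars) all 6 arrays of the other zones, for each of the 4 zones. Zone 2 has the lowest bars, 2.4% above and 2.14% below, against 20.5% and 19.7% in zone 1.

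Taken one at a time, the other zones differed from zone 2 to unequal extents, and the 3 comparisons share the zone 2 arrays. Against zone 1, zone 2 was higher in 993 probe sets (7.28%) and lower in 652 (4.78%). Against zone 3 there were 0 calls, with 2470 probe sets at an unadjusted p under 0.05 and a smallest adjusted p of 0.101. Against zone 4 there was 1 call (0.00733%), a probe set with no gene named here that was lower in zone 2, and 1554 probe sets were at an unadjusted p under 0.05. Its signals were 79.5 and 128 in zone 2, below 418 and 553 in zone 3 and 934 and 1096 in zone 4. The SD of the log2 differences was 1.17 against zone 1, 0.87 against zone 3 and 0.85 against zone 4. The calls against zone 1 numbered 70 without replicate 2 of zone 2. The calls against zone 3 numbered 358 without replicate 2 of zone 3.

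The genes whose zone 2 arrays stood above every other array included an oil-body protein and several loci named here only by locus number. The 6 with the largest differences among those reaching the median brightness are given as values, since none passed the test. OLEO3 encodes an oleosin, a protein that coats oil bodies. Its signals were 168 and 280 in zone 2, against 52.2 and 58.2 in zone 1, 80.3 and 105 in zone 3, and 41.9 and 95.8 in zone 4. No other array reached the lower zone 2 array. The log2 difference was 1.66 with an SE of 0.40 (95% interval 0.78 to 2.55, limma adjusted p = 0.444).

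AT5G08350 gave 543 and 426 in zone 2 and 39.6 to 304 on the other 6 arrays, a log2 difference of 1.55 with an SE of 0.42. Against zone 1 alone its log2 difference was 2.71 (limma adjusted p = 0.0124). AT3G08890 gave 349 and 573 in zone 2, 255 and 322 in zone 3, 134 and 214 in zone 4, and 12.2 and 73.6 in zone 1. Zone 1 was thus far below the rest, and the overall log2 difference of 1.98 (SE 0.56) split into 3.90 against zone 1, 0.64 against zone 3 and 1.40 against zone 4. Only the first of these had an adjusted p under 0.05 (0.00876). Both AT5G08350 and AT3G08890 were picked for lying above every other array, so their p-values against zone 1 are not independent support.

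The other 3 of these genes rested partly on dim arrays. AT3G20160 gave 187 and 196 in zone 2, and its other arrays ran from 1.54 to 161. Its arrays within zone 3 (1.54 and 127) and within zone 4 (102 and 6.27) disagreed, and its log2 difference of 2.60 had an SE of 1.44. Raising dim signals to each array's 40th percentile brought it to 1.37. AT1G10690 gave 106 and 93.4 in zone 2 with 2.72 to 76.7 elsewhere, and its difference of 1.87 became 1.12 with the same floor. AT2G30890 gave 86.6 and 146 in zone 2 with 12.1 to 53.4 elsewhere, and its difference of 1.66 became 1.35.

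Over the 189 named genes above the range and at or above the median brightness, the log2 differences ran from 0.30 to 2.60 with a median of 0.67, and 30 of them reached 2-fold. Their direction follows from how they were picked. The genes with a known role in the next sentences were chosen after their values were seen. AAH, allantoate amidohydrolase, which releases nitrogen from purine breakdown products, gave 98.8 and 84.2 in zone 2 and 16.8 to 63.1 elsewhere. CPI1, a sterol biosynthesis isomerase, gave 1395 and 1219 in zone 2 and 407 to 1147 elsewhere. GRX480, a glutaredoxin, gave 291 and 203 in zone 2 and 81.4 to 195 elsewhere. The gap between its lower zone 2 array and the highest other array was therefore small. SETH2, an enzyme of glycosylphosphatidylinositol anchor synthesis, gave 395 and 476 in zone 2 and 184 to 334 elsewhere. NAI1, a transcription factor needed for endoplasmic reticulum bodies, gave 385 and 370 in zone 2, next to 306 and 351 in zone 3. The log2 differences of these 5 genes were 1.29, 0.87, 0.90, 0.68 and 0.58, in the order named. AT3G06890, named here only by locus number, gave 761 and 904 in zone 2 and 264 to 509 elsewhere. Its log2 difference was 1.25 (SE 0.26, limma adjusted p = 0.444).

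**Figure D2:**
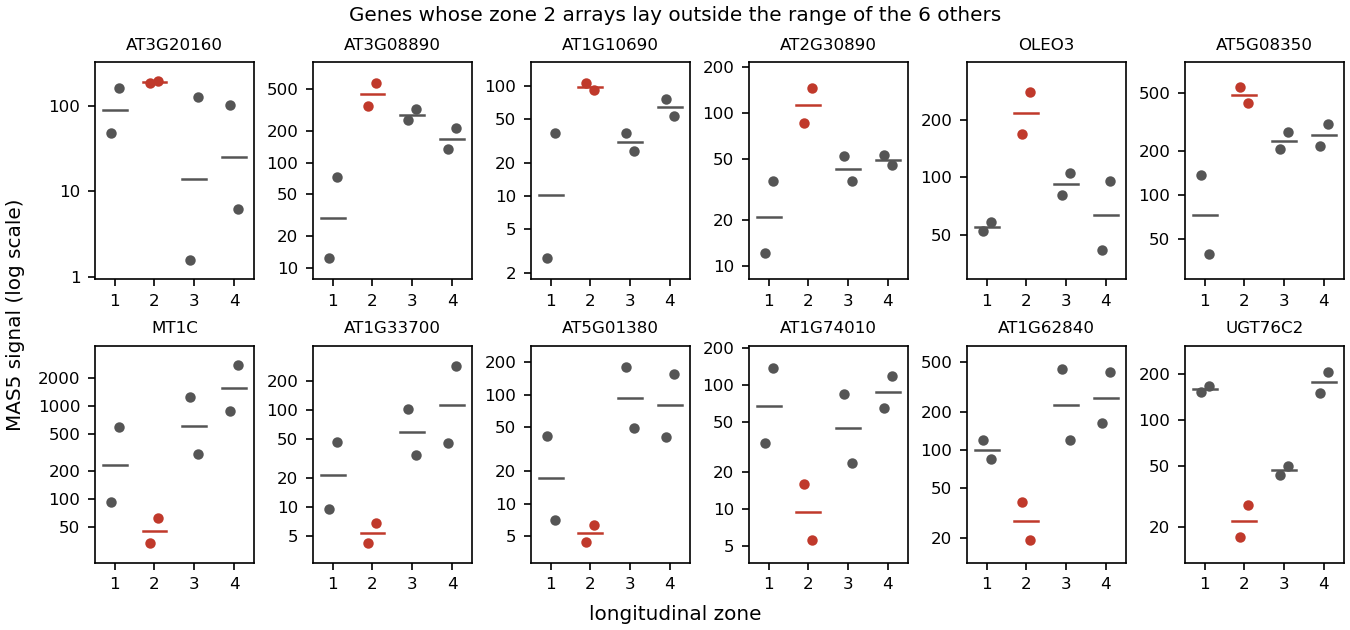
MAS5 signal on a log axis (scale differs by panel) in zones 1 to 4 for the 6 genes with the largest difference above the range (top row) and below it (bottom row). Each point is 1 array, with replicate 1 on the left, and bars are geometric means of 2 arrays; zone 2, in red, lies outside all 6 other arrays in every panel, with a gap that is narrow for AT3G08890 (349 over 322) and wider for AT1G62840 (38.5 under 85.2).

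Below the range of every other array stood a metallothionein, a cytokinin-conjugating enzyme and several loci named here only by locus number. MT1C encodes a metallothionein, a small cysteine-rich protein that binds metal ions. Its zone 2 signals were 33.5 and 61.8, against 93.2 and 587 in zone 1, 1229 and 301 in zone 3, and 888 and 2718 in zone 4. All 6 other arrays were higher, but the arrays within each of the other zones lay far apart. The log2 difference was -3.73 with an SE of 0.72 (95% interval -5.33 to -2.14, limma adjusted p = 0.444). MT1C has close relatives in the genome, and how far its probes tell them apart was not tested.

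UGT76C2 encodes a glucosyltransferase that conjugates cytokinins and so inactivates them. Its signals were 17.3 and 27.9 in zone 2, 44.1 and 50.4 in zone 3, 153 and 165 in zone 1, and 151 and 206 in zone 4. The arrays of each zone lay near each other, and zones 2 and 3 were both low. The log2 difference was -2.32 with an SE of 0.37 (95% interval -3.14 to -1.50, limma adjusted p = 0.444), and against zone 1 alone it was -2.85 (adjusted p = 0.00569). With the floor described for AT3G20160 the difference in the main comparison was -1.47. UGT76C2 was picked for lying below every other array, so its p-value against zone 1 is not independent support.

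The other 4 were named here only by locus number. AT1G62840 gave 38.5 and 19.5 in zone 2 and 85.2 to 440 elsewhere, a log2 difference of -2.73 (SE 0.53) that was -2.12 with the floor. AT1G74010 gave 15.8 and 5.58 in zone 2 and 23.4 to 137 elsewhere. AT1G33700 gave 4.21 and 6.76 in zone 2 and 9.52 to 290 elsewhere, and AT5G01380 gave 4.47 and 6.3 in zone 2 and 7.12 to 180 elsewhere. For these last 3 the log2 differences of -2.78, -3.29 and -3.25 shrank to -0.87, -0.78 and -0.69 with the floor, so their size depended on very dim signals.

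Over the 106 named genes below the range and at or above the median brightness, the log2 differences ran from -3.73 to -0.27 with a median of -0.72, and 35 reached 2-fold. The smallest unadjusted p among the genes described here belonged to AT5G60520, named here only by locus number and chosen after its values were seen. It gave 187 and 253 in zone 2, 389 and 413 in zone 3, 992 and 988 in zone 4, and 1196 and 2498 in zone 1. The order of the zones was the same as for UGT76C2 at the low end, with zone 3 nearest. Its log2 difference was -2.02 with an SE of 0.31 (limma adjusted p = 0.444), and -2.99 against zone 1 (adjusted p = 0.00229). Without replicate 1 of zone 1 its adjusted p was 0.0246.

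Other genes below the range with a known role were also chosen after their values were seen. HMT-1, a homocysteine methyltransferase that makes methionine, gave 688 and 495 in zone 2 and 974 to 1921 elsewhere, a log2 difference of -1.28 (SE 0.28). RALFL22, a signalling peptide of the RALF family, gave 190 and 215 in zone 2 and 249 to 1014 elsewhere. FATB, a thioesterase that releases fatty acids in plastids, gave 783 and 637 in zone 2 and 895 to 2021 elsewhere. TET3, a tetraspanin membrane protein, gave 510 and 408 in zone 2 and 588 to 930 elsewhere. CLE41, the precursor of a peptide that regulates vascular stem cells, gave 30.6 and 29.7 in zone 2 and 40.4 to 81.6 elsewhere. The last 4 had log2 differences of -1.12, -0.71, -0.68 and -0.89, with limma adjusted p-values from 0.47 to 0.692. CLE41 did not reach the median brightness, and its zone 2 signals were below the 40th percentiles of those arrays, 35 and 45.1. With the floor its difference was -0.50.

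Several genes had zone 2 signals like those of zone 3 and unlike those of zones 1 and 4. SIM, SIAMESE, is an inhibitor of cyclin-dependent kinases known for the switch from division to endoreduplication in leaf hairs. It gave 1014 and 2127 in zone 2, 1159 and 1789 in zone 3, 692 and 709 in zone 4, and 15.8 and 68.8 in zone 1. Zones 2 and 3 overlapped, zone 4 was lower, and zone 1 was far below. The log2 differences of zone 2 were 5.48 against zone 1 (limma adjusted p = 0.0014), 0.03 against zone 3 (adjusted p = 0.987) and 1.07 against zone 4 (adjusted p = 0.553).

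CuAO1, a copper amine oxidase that breaks down polyamines, gave 1714 and 1771 in zone 2 and 1574 and 1936 in zone 3. It gave 399 and 499 in zone 1 and 625 and 661 in zone 4, so the 4 arrays of zones 2 and 3 were all above the other 4. MGL, methionine gamma-lyase, which breaks methionine down, did not separate zone 3 from zone 4. It gave 493 and 603 in zone 2, 517 and 175 in zone 3, 134 and 285 in zone 4, and 37.4 and 63.6 in zone 1. Its zone 3 arrays lay on either side of both zone 4 arrays, and its overall log2 difference was 1.94 (SE 0.44). SIM, CuAO1 and MGL were chosen after their values were seen.

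BBM, BABY BOOM, a transcription factor of stem cells and embryos, and ATGSTF13, a glutathione transferase, ran the other way. BBM gave 7.61 and 8.76 in zone 2 and 1.6 and 10.8 in zone 3, against 601 and 149 in zone 1 and 156 and 235 in zone 4. ATGSTF13 gave 107 and 83.4 in zone 2 and 23.5 and 60.6 in zone 3, against 1116 and 1230 in zone 1 and 965 and 880 in zone 4. For both genes the arrays of zones 2 and 3 lay entirely below those of zones 1 and 4. Against zone 1 the log2 differences of zone 2 were -5.19 (limma adjusted p = 0.0134) for BBM and -3.64 (adjusted p = 0.0018) for ATGSTF13. The size for BBM rests on zone 2 signals below the 40th percentiles of those arrays, 35 and 45.1, and its difference in the main comparison was -2.92 as deposited and -1.75 with the floor. For ATGSTF13 the same values were -1.87 and -1.97.

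With zone 3 taken out of the average, 60 of the 13647 probe sets tested passed against the average of zones 1 and 4. In zone 2, 37 were higher and 23 lower. Of the 60, 38 had 1 gene, 24 higher and 14 lower. SIM was higher by a log2 difference of 3.27 (adjusted p = 0.0351) and CuAO1 by 1.70 (adjusted p = 0.0291). Both had been chosen after their values were seen, so these p-values are not an independent test of the pattern. Against zone 4 alone the differences were 1.07 for SIM (adjusted p = 0.553) and 1.44 for CuAO1 (adjusted p = 0.113). BBM was lower, with -4.87 (adjusted p = 0.0461), ATGSTF13 with -3.46 (adjusted p = 0.0161) and UGT76C2 with -2.93 (adjusted p = 0.0194). The low signals of BBM, ATGSTF13 and UGT76C2 in zones 2 and 3 were described above from the same arrays. Their p-values are therefore not an independent test either. The transcription factor gene BZIP61 was higher, with 2.14 (adjusted p = 0.0395), and most of the other named genes carry only a locus number. All p-values here are from limma with Benjamini-Hochberg adjustment.

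**Figure D3:**
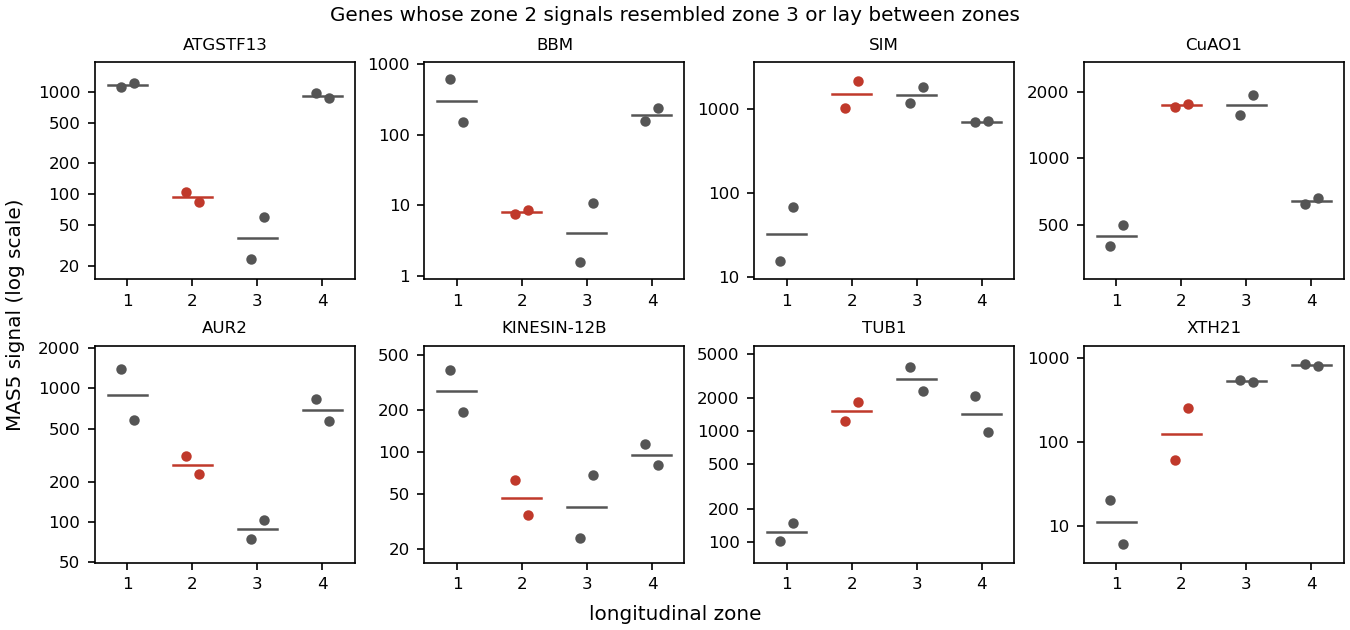
MAS5 signal on a log axis (scale differs by panel) in zones 1 to 4, 1 point per array with replicate 1 on the left and bars at the geometric mean of 2 arrays, zone 2 in red. In the top row zone 2 resembles zone 3 (SIM, 1014 and 2127 against 1159 and 1789), and in the bottom row AUR2, TUB1 and XTH21 in zone 2 lie between zone 1 and zone 3 while KINESIN-12B in zones 2 and 3 overlaps.

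Gene lists for processes of the root were drawn up by function, and in every list 0 members passed in the main comparison, the same percentage (0%) as among all probe sets. The list medians are therefore given beside the median of all probe sets, 0.03, of which 72.9% had a zone 2 mean that was neither the highest nor the lowest of the 4.

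Among the 11 cell division genes the median log2 difference was -0.13, and in all 11 the zone 2 mean lay between those of other zones. AUR2, an Aurora kinase active at mitosis, gave 1383 and 581 in zone 1, 314 and 227 in zone 2, 74.6 and 104 in zone 3, and 834 and 569 in zone 4. Zone 2 was thus above zone 3 and below the other zones on every array. KINESIN-12B, a motor protein of the cell plate, gave 63.1 and 35.3 in zone 2, 389 and 194 in zone 1, 24 and 68.8 in zone 3, and 115 and 80.3 in zone 4. Against zone 1 its zone 2 signal was lower by a log2 difference of -2.54 (limma adjusted p = 0.0245). The 9 genes of DNA replication and histones had a median of 0.03, and HTB4, a histone H2B, gave 8340 and 8443 in zone 2, 3512 and 4580 in zone 3 and 6037 to 8425 in the other zones. The 7 genes of ribosomal RNA synthesis and processing lay between -0.34 and -0.01, all with a zone 2 mean between those of other zones.

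Genes of wall growth spread in both directions. The 18 tested expansin and xyloglucan-modifying genes had a median of -0.07, with 9 positive and 9 negative, and centring the arrays brought the median to 0.00. XTH21 gave 62 and 252 in zone 2, between 20.6 and 6.11 in zone 1 and 545 and 515 in zone 3. Its zone 2 signals were higher than those of zone 1 by 3.48 on the log2 scale (limma adjusted p = 0.0124), although the 2 zone 2 arrays differed widely. XTH16 gave 334 and 530 in zone 2, 87.8 and 58.9 in zone 1, 656 and 624 in zone 3, and 438 and 217 in zone 4. Its difference of 0.80 turned to -0.08 when zone 1 was left out of the average. EXGT-A3, a xyloglucan endotransglucosylase, gave 343 and 306 in zone 2 and 489 to 786 elsewhere (log2 difference -1.03, SE 0.27, limma adjusted p = 0.47). It was the list's 1 member below every other array, and 1 other member lay above every other array. Over all probe sets the shares were 2.14% below and 2.4% above.

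In the cytoskeleton list of 8 tubulin and actin genes the median was -0.07 (0.00 after centring). TUB1, a beta-tubulin, gave 1231 and 1847 in zone 2, 101 and 149 in zone 1, 3779 and 2296 in zone 3, and 2056 and 985 in zone 4. Zone 1 was the low zone, with a log2 difference of 3.62 (limma adjusted p = 0.0018). The overall difference of 0.91 turned to -0.44 when zone 1 was left out. TUB5 gave 1186 and 1369 in zone 2, 1707 and 1238 in zone 3, and 199 to 645 in the other zones, and it had a difference of 0.94. ACT11, an actin, lay below every other array, with 258 and 252 in zone 2 and 317 to 632 elsewhere (difference -0.72, SE 0.30).

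All tested members of the root hair and endodermis lists had lower mean signals in zone 2 than in zones 3 and 4, and none passed the test. The 4 tested root hair genes had a median of -0.84, and all 4 lay between other zones. GH9C1, a root hair cellulase-family gene, gave 39.3 and 82.3 in zone 2, 17.8 and 11.4 in zone 1, 329 and 142 in zone 3, and 208 and 730 in zone 4. EXPA18, a root hair expansin, gave 27.6 and 29.3 in zone 2, 26.9 and 3.61 in zone 1, 215 and 101 in zone 3, and 154 and 1268 in zone 4. Its 2 zone 4 arrays were far apart. Zone 2 arrays were below every zone 3 and zone 4 array for GH9C1, EXPA18 and EXPA7. This was not so for AT5G06630, which gave 25 and 39.1 in zone 2 and 19.7 on replicate 1 of zone 3. Leaving out 1 array at a time moved the root hair median between -1.49 and -0.19. The 3 genes of the Casparian strip and endodermis list had a median of -2.42, which ran from -3.40 to -1.45 with 1 array left out. It was -0.97 with the floor on dim signals, -1.22 with an offset of 32 added to each signal and -0.72 with the lowest 60% of probe sets left out. AT5G65530 (8.32 and 2.15) and AT1G44970 (16.8 and 4.84) were dim in zone 2, below the 40th percentiles of those arrays, 35 and 45.1. AT5G65530 gave 227 and 4.0 in zone 3 and 22.3 and 581 in zone 4. It exceeded the filter signal of 42.5 only on replicate 1 of zone 3 and replicate 2 of zone 4. Replicate 2 of zone 3 was below replicate 1 of zone 2. AT1G44970 gave 189 and 33.7 in zone 3 and 46.6 and 586 in zone 4, so its arrays within each of these zones also lay far apart. GSO1, a receptor kinase needed for an intact Casparian strip, gave 38.5 and 120 in zone 2, 43.6 and 23.6 in zone 1, 328 and 107 in zone 3, and 148 and 372 in zone 4.

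The 8 tested nuclear photosynthesis genes, markers of green tissue, had a median of -0.51, with 7 of 8 negative. LHCB4.1, a light-harvesting protein, gave 41.1 and 53.1 in zone 2, 73.8 and 29.8 in zone 1, 138 and 93.1 in zone 3, and 285 and 281 in zone 4. The summed signal of all 10 named photosynthesis genes was 335 and 707 in zone 2, 567 and 170 in zone 1, 894 and 680 in zone 3, and 1397 and 1297 in zone 4. The part of green tissue in the results was not tested. The 64 tested plastid-encoded probe sets had a median of -0.11.

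**Figure D4:**
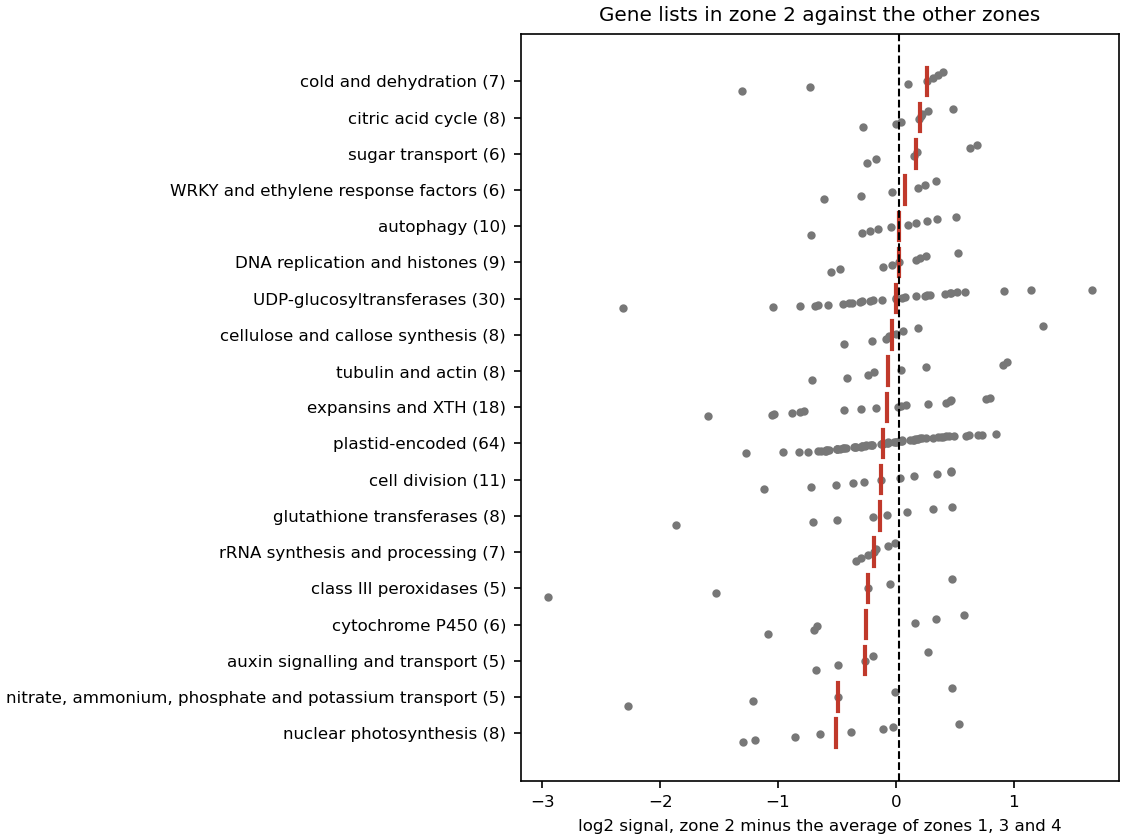
Log2 difference between zone 2 and the average of zones 1, 3 and 4 (horizontal axis) for the tested members of each gene list with at least 5 of them. Each grey point is 1 probe set, spread vertically only to avoid overlap, red bars are list medians, the dashed line is the median of all probe sets at 0.03, and numbers in brackets are members tested; the list medians lie between -0.51 and 0.27.

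The 3 tested genes of sulfate assimilation had log2 differences from -0.65 to -0.01 in zone 2, and 0 passed. ATP sulfurylase activates sulfate, and sulfite reductase makes sulfide from its reduced form. APS3, an ATP sulfurylase, gave 336 and 275 in zone 2, 604 and 349 in zone 1, 261 and 178 in zone 3, and 273 and 310 in zone 4, a log2 difference of -0.01 (95% interval -0.68 to 0.66). Another ATP sulfurylase, APS4, gave 185 and 181 in zone 2, 156 and 234 in zone 1, 269 and 262 in zone 3, and 345 and 639 in zone 4. SIR, sulfite reductase, gave 1141 and 790 in zone 2, 1879 and 1299 in zone 1, 1220 and 755 in zone 3, and 1146 and 1144 in zone 4. The intervals reach from -1.33 to 0.03 for APS4 and from -0.97 to 0.30 for SIR. The 4 tested genes of the sulfur deficiency response had a median of 0.01.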

How the data were processed

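The deposited values are signals (intensity on a linear scale), and the submitters' processing notes name MAS5 as the authors' method; its version is not given in the sources used here. Trimmed by 2% at each end, mean signals were equal on all 8 arrays. Two-cycle amplification preceded hybridisation, per the labels' protocols. Of 22810 probe sets, 64 controls were left out. Of the other 22746, 13513 had 1 gene in the platform annotation, 503 had several and 8730 were unnamed here. Names were updated from RefSeq through the 13436 that matched a locus.

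The log2 of each signal was used with no offset. The lowest 40% by mean signal (42.5 or less) were left out, which left 13647. All 8 arrays entered 1 fit with a mean for each zone, made with limma 3.58.1 under R 4.3.3 (4 residual degrees of freedom, eBayes with trend). Tests were two-sided, with Benjamini-Hochberg adjustment. The members, the 46 gene lists and the tests were chosen with earlier results of these data known. Of the lists, 37 had a named member. Named genes were the 6 largest differences outside the range per direction, up to 4 members per list with at least 3 tested, and the sulfur genes; others are said to be chosen after their values were seen. Promoter motifs were not analysed here. The fit was tested on simulated data. Alternatives covered normalization, filter, offset, floor, prior variance, block, fold, the zones averaged and left-out arrays. Plots used Python 3.11.15, pandas 2.3.3, numpy 2.4.6 and matplotlib 3.10.9.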

Additional observations from a re-analysis of the deposited data

How the results depend on the processing

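With 2 arrays per zone the precision is low. The floor on dim signals left 150 probe sets at least 2-fold higher and 322 at least 2-fold lower, against 291 and 581 without it. For zone 2 against the average of zones 1, 3 and 4, with 0 calls, there was 1 call with a prior variance without trend, 1 against the average of zones 3 and 4, and 60 against the average of zones 1 and 4, and 0 to 3 with 1 array left out (3 without replicate 1 of zone 1). Members of the gene lists passed against the average of zones 1 and 4, where 3 did (BBM, ATGSTF13 and UGT76C2), beside 60 of all 13647 probe sets tested. The share among list members was not compared with that among all probe sets. With 1 array left out, 0 list members passed. The 1645 calls against zone 1 became 804 without trend and 70 to 1729 with 1 array left out (70 without replicate 2 of zone 2, 920 and 921 without a zone 4 array). The 0 calls against zone 3 became 0 to 358 (3 without replicate 1 and 358 without replicate 2 of zone 3). The 1 call against zone 4 became 4 with quantile normalization, 6 with no filter, 2 with the lowest 60% left out, 152 with an offset of 32, 151 with the floor on dim signals, 2 without trend, 3 with a robust prior variance, and 0 to 36 with 1 array left out (36 and 21 without replicates 1 and 2 of zone 1, 14 without replicate 2 of zone 2, 7 and 8 without replicates 1 and 2 of zone 3). The cause of these changes was not tested. The fits with an array left out rested on fewer arrays, and the stricter filter on fewer probe sets.

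The 328 probe sets above the range became 673 with no filter and 372 to 1554 with 1 array left out. The 292 below became 478 with no filter, 146 with the lowest 60% left out and 337 to 1285. A range of fewer arrays is easier to leave. Leaving out replicate 1 of zone 2 and replicate 2 of zone 3 together, chosen after seeing the data, gave 2047 above, 1514 below and 0 calls against zone 4. XTH16 (-0.079) and TUB1 (-0.44) changed sign against the average of zones 3 and 4. Of 50 genes followed across the alternatives, some of them not described in the text, 7 passed against the average of zones 1 and 4 (BBM, UGT76C2, AT5G60520, ATGSTF13, CuAO1, AT5G62330 and SIM), AT5G60520 without replicate 1 of zone 1 and 0 under the other alternatives. Deviations of same-numbered arrays of 2 zones had correlations of at most 0.0369, so no pairing by replicate number was visible. The lowest was -0.192, for zones 3 and 4, where replicate 1 of zone 3 deviated weakly with replicate 2 of zone 4. The other pairs of zones lay between -0.0374 and 0.0369. The cause of the shared deviation was not tested. Whether same-numbered samples share plants or a preparation is unstated. With the replicate block there were 0 calls against the average, 1325 against zone 1, 0 against zone 3 and 0 against zone 4.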

Other observations

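Lists outside the main account were also described as values, with 0 members called in each. The 8 tested genes of the citric acid cycle list had a median log2 difference of 0.20, with 7 of 8 positive. The gene cICDH encodes a cytosolic isocitrate dehydrogenase, which is not an enzyme of the mitochondrial cycle. It gave 15320 and 19955 in zone 2, 10546 and 10029 in zone 1, and 13509 to 25572 in the others. The 7 tested genes of cold and dehydration had a median of 0.27, although COR47, a dehydrin, gave 810 and 905 in zone 2, 341 and 1131 in zone 1, 6985 and 2139 in zone 3, and 2473 and 6178 in zone 4. Its zone 2 arrays lay below all 4 arrays of zones 3 and 4.

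Among transporters, TMT1, which moves sugars into the vacuole, gave 896 and 1387 in zone 2, 264 and 274 in zone 1, 1612 and 1289 in zone 3, and 1037 and 708 in zone 4. Against zone 1 its difference was 2.05 on the log2 scale (limma adjusted p = 0.00686). GTR1, a glucosinolate transporter, gave 179 and 188 in zone 2, 128 and 92.9 in zone 1, 907 and 637 in zone 3, and 712 and 1205 in zone 4. The 30 tested UDP-glucosyltransferases had a median of 0.00, and UGT71C4 gave 1147 and 1835 in zone 2, 240 and 398 in zone 1, 2223 and 1262 in zone 3, and 702 and 1095 in zone 4, a pattern with zones 2 and 3 high that UGT76C2 does not share. ATG8E, an autophagy protein, gave 37.8 and 49.4 in zone 2, 8.07 and 6.99 in zone 1, 287 and 132 in zone 3, and 144 and 426 in zone 4.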
